A study of Homo sapiens with 11 samples.

Results

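G15, a small-molecule antagonist of the G protein-coupled estrogen receptor GPER1, was given alone to T47D cells and compared with untreated cells. The comparison rested on 2 of the 11 arrays of the series, the G15 array and the second untreated array (control 2). Control 2 was used because it lies in the same set of arrays as G15, while the other untreated array does not. T47D is a human breast cancer line in long use that carries estrogen and progesterone receptors. All cells were first kept for 4 h with 10% charcoal-stripped, steroid-poor serum and then for 3 h under treatment. The G15 cells received 10 µM G15 and the control 2 cells no added agent. The vehicle in which G15 was dissolved was not given in the sources used here, so the effect of G15 and that of any solvent cannot be told apart. Transcripts were measured in total RNA by Affymetrix arrays, and 54613 probe sets that cover 19775 named genes were used.

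With 1 array a side the pair has no replicate check, and the differences below are sizes without p-values. A second pair, which shares no array with the first, also differed by G15: E2-BSA with G15 (1 µM and 10 µM) against E2-BSA alone (1 µM, second array). E2-BSA is estradiol coupled to bovine serum albumin. Further single arrays were cells given BSA at 1 µM, ethanol at 0.1%, ICI at 10 µM (named by this abbreviation alone) and E2-BSA with ICI. All these arrays belong to a larger set of 8. The remaining 3 arrays (control 1, the first E2-BSA array and estradiol) form a smaller set. Their values correlated with the G15 array at -0.54 to -0.48 across all probe sets, against 0.24 to 0.47 for the larger set. Each probe set was centred over arrays, which by itself pushes the values of differing array sets to opposite signs. The negative correlations thus separate the sets but do not show that their expression profiles run opposite. The labels did not say whether any arrays came from separate cultures.

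GPER1 is a membrane receptor that couples to G proteins and is known to raise cyclic AMP and, through release of EGF receptor ligands, to activate the kinases ERK1 and ERK2. ERK activity induces its own inhibitors, among them DUSP6, a phosphatase that removes the activating phosphates from ERK. Cholesterol synthesis is switched on by the transcription factor SREBP2 when membrane cholesterol is low, and INSIG1 is both one of its targets and the protein that holds it back. Interferon-stimulated genes are a set of antiviral genes switched on together through the interferon-stimulated response element (ISRE) in their promoters.

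IFI27 and ISG15, both interferon-stimulated, had the highest gene values under G15, and 4 promoters of that group are shown because its members differed together. Each is the 200 bases before a gene's start, 5′ to 3′ on the gene's strand, from RefSeq on GRCh38.p14. Capitals mark matches to the core of the ISRE, read as GAAA, any 2 bases and GAAA again, on both strands, and matches may overlap. They lie at chr1:1013297-1013496 (plus strand), chr14:94110536-94110735 (plus), chr1:27672193-27672392 (minus) and chr10:89392423-89392622 (plus).
ISG15: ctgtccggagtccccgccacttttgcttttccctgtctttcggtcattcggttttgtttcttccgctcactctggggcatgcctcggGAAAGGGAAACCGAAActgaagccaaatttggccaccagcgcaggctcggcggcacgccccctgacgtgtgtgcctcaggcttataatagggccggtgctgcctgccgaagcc
IFI27: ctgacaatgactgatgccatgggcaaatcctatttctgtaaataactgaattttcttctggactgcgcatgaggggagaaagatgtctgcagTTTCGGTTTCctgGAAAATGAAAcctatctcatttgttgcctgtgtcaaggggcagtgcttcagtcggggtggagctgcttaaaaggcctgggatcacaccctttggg
IFI6: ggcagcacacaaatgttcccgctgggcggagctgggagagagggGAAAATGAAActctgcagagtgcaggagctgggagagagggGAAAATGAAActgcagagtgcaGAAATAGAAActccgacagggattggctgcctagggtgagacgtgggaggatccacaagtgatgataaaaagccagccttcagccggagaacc
IFIT1: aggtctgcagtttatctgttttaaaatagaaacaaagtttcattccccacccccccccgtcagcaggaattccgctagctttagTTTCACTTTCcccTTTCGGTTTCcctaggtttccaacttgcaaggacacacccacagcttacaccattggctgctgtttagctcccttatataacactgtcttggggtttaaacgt
Over windows that reach from 250 bases before to 50 after a start, 10 of the 13 interferon-list genes with a window held the motif (76.9%), against 1195 of all 27305 genes (4.38%). Among list genes with a G15 difference of 0.5 or more it was 6 of 7, and among those under 0.5 it was 4 of 6. These matches describe the sequence and are no evidence of binding in these cells.

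On the deposited scale few transcripts differed by much between the G15 and control 2 arrays. A difference of 1 or more on the log2 scale, a 2-fold difference, was found for 14 of 54613 probe sets (0.0256%), with 13 lower (0.0238%) and 1 higher (0.00183%) under G15. After quantile normalization the count was 215, with 115 lower and 100 higher. The small number thus rests on the deposited scale, while lower values stayed in excess but less one-sidedly. Before this step the SD over probe sets was 0.162 on G15 and 0.165 on control 2. It was 0.405 to 0.420 on the arrays of the smaller set. The part of this wider spread in the count of 215 was not tested. On the deposited scale all differences between G15 and control 2 lay between -1.65 and 1.28, with an SD of 0.183 over probe sets. At a difference of 0.5 or more there were 753 probe sets (1.38%), with 465 lower and 288 higher. The arrays also differed in the 5′ minus 3′ difference of the ACTB control probe sets, a sign of RNA integrity, which was -0.37 on control 2, the lowest of the 8, and -0.08 on G15. The same measure for GAPDH was -0.13 on control 2 and -0.11 on G15. Their part in these counts was not tested. In RNA of a whole culture, fewer cells with a transcript and less transcript per cell cannot be told apart.

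Pairs of single arrays that do not differ by G15 gave the scale of these counts. BSA minus ethanol, which shares no array with the main pair, had 104 probe sets past 2-fold and 1288 past 0.5, and its differences had an SD of 0.213. ICI minus control 2 had 10 and 939, and BSA minus control 2 had 42 and 853, both with the control 2 array in common with the G15 comparison. The second G15 pair, with E2-BSA present, had 12 probe sets past 2-fold, 9 higher and 3 lower, and 1192 past 0.5. E2-BSA with ICI minus E2-BSA, which also lacks G15 and shares neither array, had 23 and 1328. The ethanol array, which is in the first of these pairs, had 110 probe sets past 2-fold against control 2 and 108 against G15.

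**Figure D1:**
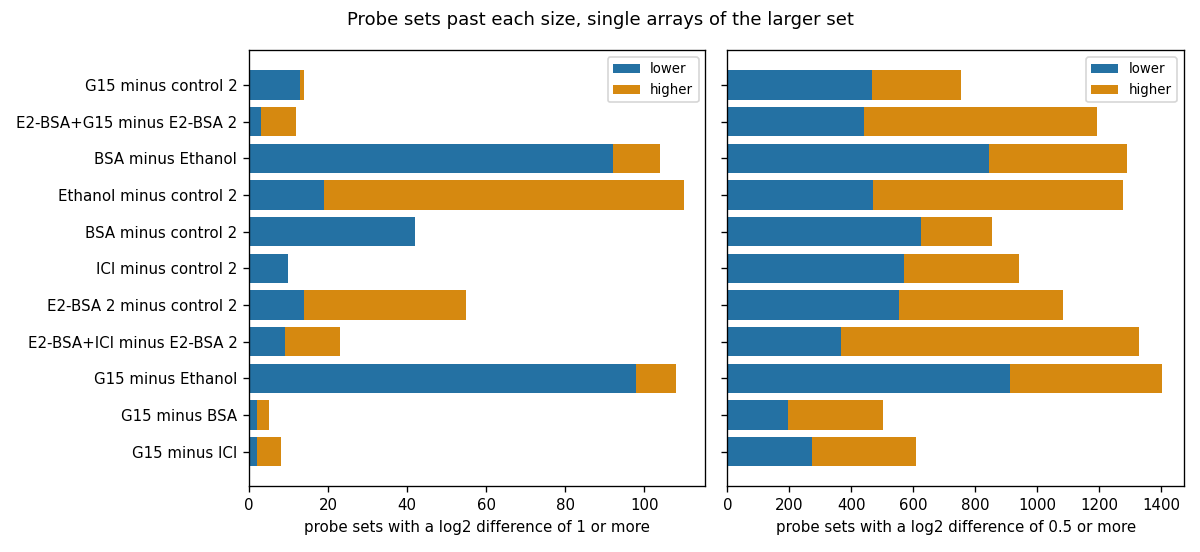
Probe sets that differed by 1 or more (left) and by 0.5 or more (right) on the log2 scale, counted between single arrays of the larger set, split into lower and higher in the first-named array. G15 minus control 2 had 14 and 753, against 104 and 1288 for BSA minus ethanol.

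DUSP6 had the lowest value of any probe set. Its lowest probe set was at 0.20 on control 2, 1.28 on ethanol, -0.03 on BSA, -0.27 on ICI and -1.45 on G15, and at 0.67 on E2-BSA, 0.05 on E2-BSA with ICI and -0.60 on E2-BSA with G15. The values are log2 deviations from a centre set by the authors, so they rank arrays and carry no expression level. The G15 array was the lowest of the 8 and the E2-BSA with G15 array the next, and ethanol was the highest. Both arrays with G15 were the 2 lowest in 2.74% of all probe sets. DUSP6 was chosen for low values of these same differences, so this rank follows in part from the choice. G15 minus control 2 was -1.65, which is 3.14-fold lower, and the second pair gave -1.27.

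The other DUSP6 probe sets had the same sign at smaller sizes. The next was at -0.05 on control 2 and -0.80 on G15, a difference of -0.75, and the second pair gave -0.99 (0.75 on E2-BSA, -0.24 with G15). The third differed by -0.17 and -0.38. In all 3 the G15 array was the lowest of 8, against 7.78% of all genes by gene value. The gene value, the median over a gene's probe sets, was -0.75 for DUSP6 and -0.99 with E2-BSA, and it was the lowest of all genes when ranked by the smaller of both differences.

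Other genes of ERK feedback did not share the size of the DUSP6 difference. Of 12 measured, DUSP6 was the only one at -0.5 or lower, and 0 were at 0.5 or higher. The background was 0.182% of all genes for -0.5 or lower and 0.303% for 0.5 or higher. DUSP5, a nuclear ERK phosphatase, was at -0.27 alone and -0.27 with E2-BSA, and DUSP4, another, at -0.20 and -0.24. SPRY2, an inhibitor of receptor tyrosine kinase signalling, was at 0.45 alone and -0.60 with E2-BSA, opposite signs. The list median was -0.00 alone, with 6 of 12 below 0 (all genes 45.1%). With E2-BSA it was -0.22, with 9 of 12 below 0 (all genes 49.7%). The medians over all genes were 0.01 and 0.00.

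INSIG1 was low on both arrays with G15. Its lowest probe set was at 0.31 on control 2, 0.68 on ethanol, 0.13 on BSA, 0.43 on ICI and -0.57 on G15, and at 0.04 on E2-BSA, -0.04 on E2-BSA with ICI and -0.76 on E2-BSA with G15. The arrays with G15 were the 2 lowest of 8 and did not overlap the other 6, as in 2.74% of all probe sets. INSIG1 was chosen for low values of these same differences, so this rank follows in part from the choice. All 3 INSIG1 probe sets were negative in both pairs, at -0.54, -0.88 and -0.72 alone and -0.21, -0.80 and -0.45 with E2-BSA. The gene value of -0.72 was a 1.64-fold difference.

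Genes of cholesterol synthesis and uptake were lower under G15 by small amounts. All 16 measured genes had a negative difference, against 45.1% of all genes below 0, and their median was -0.17 against 0.01 over all genes. INSIG1 was the only one at -0.5 or lower. In the second pair 13 of 16 were negative, with a median of -0.12, against 49.7% of all genes below 0. In 9 of the 16 genes (56.2%) the arrays with G15 were the 2 lowest of the 8, against 2.59% of all genes. By probe set it was 15 of 38 (39.5%), against 2.74% of all probe sets. The G15 array itself was the lowest of 8 in 9 of the 16 genes, against 7.78% of all genes.

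The members with the lowest values stood at several steps of the pathway. MSMO1, a demethylase of the sterol ring, was at -0.00 on control 2, 0.35 on ethanol, -0.07 on BSA, 0.03 on ICI and -0.43 on G15, and at -0.08 on E2-BSA, -0.04 with ICI added and -0.35 with G15 added. Its differences were -0.43 and -0.27, and both arrays with G15 lay below the other 6, as in 2.74% of all probe sets. MSMO1 was named as one of the lowest of the list, so this too follows in part from the choice. MVD, which makes isopentenyl diphosphate, was at -0.40 and -0.23, SQLE, the squalene epoxidase, at -0.35 and -0.15, and HMGCS1, which makes HMG-CoA, at -0.26 and -0.07. DHCR7, the last enzyme of one branch, was at -0.22 and -0.14. Members near 0 were FDPS (-0.03 and 0.06), NSDHL (-0.04 and -0.00), EBP (-0.05 and 0.10) and SREBF2 itself (-0.07 and 0.07).

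The SQLE probe sets disagreed, running from -0.57 to 0.03 alone. Measured against the BSA array in place of control 2, the list median was -0.12, and against ethanol it was -0.28. Against control 2 as well, the medians of the same genes were 0.02 for ICI, -0.02 for BSA and 0.09 for ethanol. The sterol response element, read as TCACNCCAC on both strands over the same promoter windows, was found for 1 of 15 list genes (6.67%), SREBF2, against 1.39% of all genes. Targets of the related lipid regulators LXR and SREBP1 had a median of -0.02, with 5 of 11 positive, and ELOVL6, a fatty acid elongase, was lowest at -0.29.

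**Figure D2:**
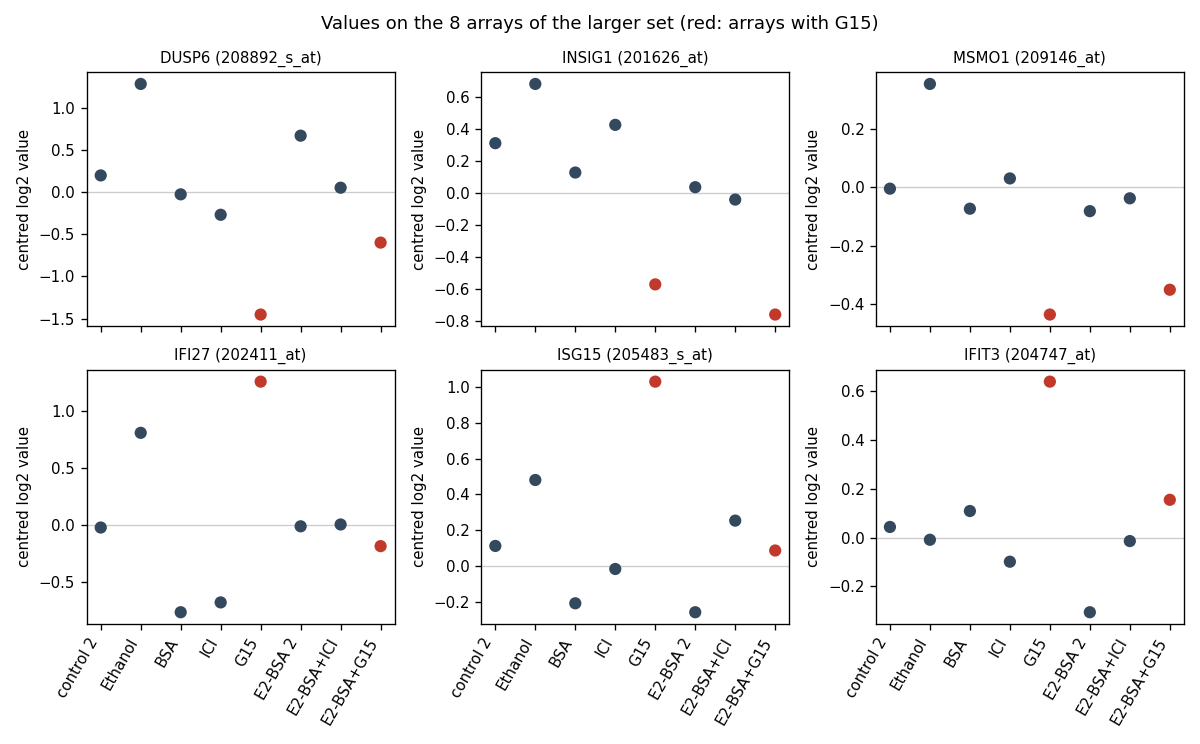
Centred log2 values on the 8 arrays of the larger set for 1 probe set each of DUSP6, INSIG1, MSMO1, IFI27, ISG15 and IFIT3, 1 point per array, arrays with G15 in red. DUSP6, INSIG1 and MSMO1, chosen for low values, were lowest on the 2 arrays with G15, as were 2.74% of all probe sets. IFI27 and ISG15 were highest on the G15 array alone and lay among the other arrays when E2-BSA was present. The IFIT3 probe set shown was highest on G15 and next highest on E2-BSA with G15, while its other probe set was at -0.44 on E2-BSA with G15, below control 2 at -0.36.

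Interferon-stimulated genes were higher on the G15 array. Of 17 measured, 16 had a positive difference (all genes 54.8%) and 7 were at 0.5 or higher (all genes 0.303%), with a median of 0.30. IFI27 had the only probe set of the array that was 2-fold or more higher, at 1.28, which is 2.43-fold. The ubiquitin-like modifier ISG15 was at 0.92, IFI6 at 0.69, the RNA-binding protein IFIT1 at 0.66 and the antiviral GTPase MX1 at 0.58. OAS1, which senses double-stranded RNA, was at 0.52 and IFIT3 at 0.51. At the other end IFI44 was at -0.07 and IFIT2 at 0.01. Just under 0.5 was OAS2, of the same family as OAS1, at 0.39.

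The ethanol array was also high for part of these genes. IFI27 was at -0.02 on control 2, 0.81 on ethanol, -0.76 on BSA, -0.68 on ICI and 1.26 on G15, and at -0.01 on E2-BSA, 0.01 with ICI added and -0.18 with G15 added. ISG15 was at 0.11 on control 2, 0.48 on ethanol, -0.21 on BSA, -0.02 on ICI and 1.03 on G15, and at -0.26, 0.25 and 0.09 on the arrays with E2-BSA in that order. In both genes G15 was the highest array and ethanol the next. Against the ethanol array the list median was 0.16 with 2 genes at 0.5 or higher, and against the BSA array it was 0.33 with 6.

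The same list was described in the pair with E2-BSA present, where the median was 0.16, with 11 of 17 positive (all genes 50.3%) and 1, IFIT3, at 0.5 or higher (all genes 0.364%). IFI27 was then at -0.17, IFI6 at -0.45 and OAS1 at -0.05, while ISG15 was at 0.34, IFIT1 at 0.38 and MX1 at 0.33. IFIT3 was at 0.73, and one of its 2 probe sets was at -1.45 on E2-BSA and -0.44 with G15 added, against -0.36 on control 2 and 0.07 on G15. In 10 of the 17 genes (58.8%) G15 was the highest of the 8 arrays, against 12.3% of all genes, and in 0 of 17 were both arrays with G15 the 2 highest, against 3.56%. The median on arrays without G15, each minus the same control 2, was 0.16 for ethanol, -0.08 for BSA and -0.13 for ICI.

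**Figure D3:**
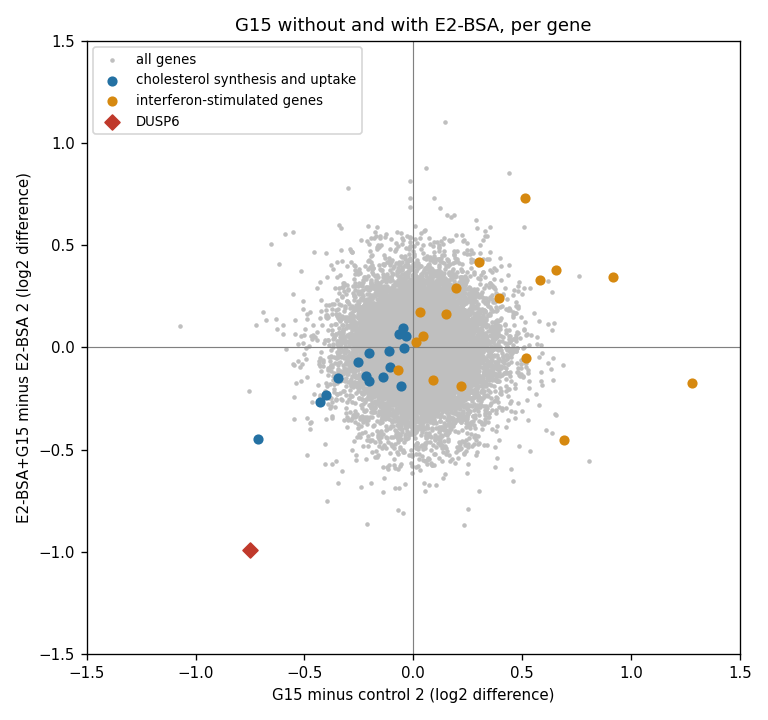
Gene values of G15 minus control 2 (horizontal) against E2-BSA with G15 minus E2-BSA (vertical), log2 differences, 1 point per gene for 19775 genes. Interferon-stimulated genes reach 1.28 on the horizontal axis and 0.73 on the vertical, cholesterol genes lie left of 0, and DUSP6 is low on both axes at -0.75 and -0.99.

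Across all genes, the G15 differences of the 2 pairs were set side by side. The correlation of the 2 differences was -0.02 over 19775 genes and -0.07 over 54613 probe sets. No array is shared between the pairs, and genes are not independent replicates. Besides DUSP6 and INSIG1, the genes lower in both by the smaller difference were SOD2, the mitochondrial superoxide dismutase (-0.41 and -0.57), PM20D1 (-0.37 and -0.57), LRIG3 (-0.36 and -0.55), CCDC177 (-0.55 and -0.35), TRIM11 (-0.37 and -0.34) and KIR2DS4 (-0.37 and -0.34). Those higher in both were CHAC1 (0.51 and 0.59), PCDHA9 (0.44 and 0.85), CNR2 (0.44 and 0.40), IFIT1, IFIT3, SLC25A47 (0.38 and 0.38), EN1 (0.37 and 0.39) and DDIT3 (0.35 and 0.59). IFIT1 was at -0.80 on E2-BSA, the lowest of the 8 arrays, and at -0.42 with G15 added. Its value on control 2 was -0.22, and on G15 it was 0.44.

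CHAC1, which degrades glutathione, and DDIT3, a transcription factor, belong to the integrated stress response. That list had 13 of 16 members positive (all genes 54.8%) and a median of 0.06, and 0.14 with E2-BSA. Both were highest on the ethanol array, CHAC1 at 3.63 and DDIT3 at 2.50. On control 2 CHAC1 was at -0.22 and on G15 at 0.29, while E2-BSA had 0.26 and E2-BSA with G15 0.85. TRIB3, a target of the same response, was at -0.04 under G15 alone.

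The fit over both backgrounds asked whether the G15 difference stood out from what summed E2-BSA, ICI and G15 effects left unexplained. limma was fitted to 6 arrays, with and without E2-BSA and with no antagonist, ICI or G15, so that the G15 term averages over both pairs. It called 0 of 54613 probe sets at an adjusted p under 0.05 (0%), and 2504 (4.58%) had an unadjusted p under 0.05. The lowest adjusted p was 0.961. The lowest DUSP6 probe set was at -1.46 ± 0.14 (SE; limma adjusted p = 0.961), the lowest of INSIG1 at -0.84 ± 0.10 (adjusted p = 0.961) and the other IFIT3 probe set at 0.53 ± 0.15 (adjusted p = 0.961). IFI27, with opposite signs in the pairs, was at 0.55 ± 0.45 (adjusted p = 0.964). The fit has 2 residual degrees of freedom, with 1 array per combination. They hold any change of the G15 or ICI difference with E2-BSA, as in IFI27, together with the spread between arrays. The missing calls do not show that these genes were unaffected. A fit of group means to all 11 arrays with the array set as a block also called 0 for G15 minus control, with 2643 at an unadjusted p under 0.05 and a lowest adjusted p of 0.0577. It has 1 residual degree of freedom, from the control and E2-BSA groups repeated in both array sets, and takes the spread of the single G15 array from them, so it is no check on that array.

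The receptors showed no difference of 0.5 or more under G15. GPER1, the receptor that G15 blocks, was at 0.14 on control 2 and -0.04 on G15 in one probe set, and at 0.11 and -0.13 in the other. Its gene value was -0.21 alone and -0.10 with E2-BSA. The estrogen receptor genes ESR1 and ESR2 were at -0.02 and 0.02, and the progesterone receptor gene PGR at -0.08. Of 21 measured components of GPER1 signalling, from G proteins and adenylyl cyclases to EGF receptor ligands, 0 were at 0.5 or more in either direction, where the share of all genes was 0.485%, and the median was 0.01. A list of this size would seldom hold such a gene at that share. HBEGF, an EGF receptor ligand, was highest at 0.22.

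Genes reported as targets of GPER1 lay between -0.27 and 0.24 under G15. The median was 0.03. None of the 12 was at 0.5 or more in either direction, which at the share of all genes (0.485%) is no result about the list. EGR1 was at 0.23 and ATF3 at 0.24, both early response transcription factors, FOS, another, at -0.07 and CCND1, the cyclin D1 gene, at -0.27. With E2-BSA the median was -0.12 and 8 of 12 were negative (all genes 49.7%), with CCND1 at -0.34. Targets of cyclic AMP and CREB had a median of 0.08, with 11 of 14 positive (all genes 54.8%). The highest members were PPARGC1A, a transcriptional coactivator, at 0.25 alone and -0.00 with E2-BSA, and RGS2, a regulator of G protein signalling, at 0.25 alone and 0.48 with E2-BSA. Immediate early genes had a median of 0.01, with 11 of 22 on each side of 0.

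Estrogen-induced targets were near the level of all genes, with a median of 0.01 and 17 of 33 positive (all genes 54.8%). KCNK5, a potassium channel gene, was the only one past 0.5. Its values were -0.49 on control 2, -0.73 on ethanol, -0.57 on BSA, -0.96 on ICI and 0.03 on G15, and 1.42 on E2-BSA, 0.26 with ICI added and 1.34 with G15 added. Its difference was 0.52 alone and -0.08 with E2-BSA. MYC, a transcription factor, was at -0.31 alone and -0.30 with E2-BSA, against -1.87 for ICI minus the same control. CISH, an inhibitor of cytokine signalling, was lowest of the list at -0.36. TFF1 was at 0.20, GREB1 at -0.20 and EGR3 at 0.20. With E2-BSA 23 of 33 estrogen-induced targets were negative under G15 (all genes 49.7%), with a median of -0.11. The baseline there is the E2-BSA array, and the list was chosen with earlier results of these data known. Where members were chosen as high on that array, negative differences follow in part from the choice. The part of G15 in this count was not tested.

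**Figure D4:**
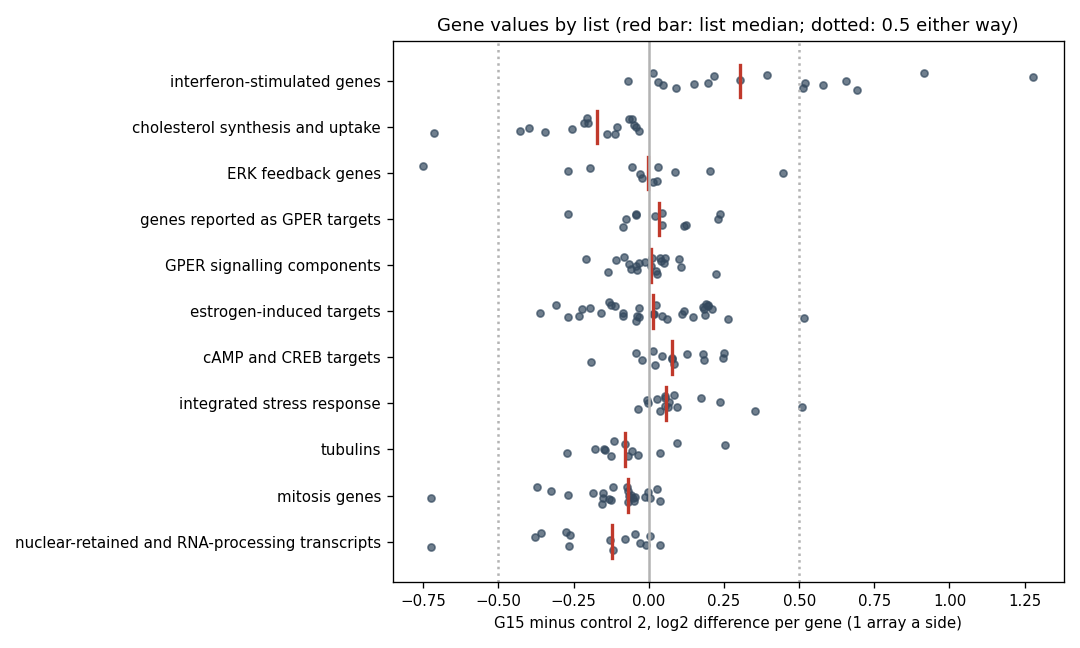
Gene values of G15 minus control 2 (log2 difference) for 11 gene lists, 1 point per gene, list medians as red bars, dotted lines at 0.5 in each direction. Interferon-stimulated genes have a median of 0.30 with 7 points past 0.5, and cholesterol genes a median of -0.17 with every point below 0. Nuclear-retained and RNA-processing transcripts have a median of -0.12, and the medians of the other lists shown lie between -0.08 and 0.08.

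The other lists are given by their counts. Of 34 lists, 26 had no member at 0.5 or more in either direction, 7 had 1 and 1, the interferon list, had more. With 0.485% of all genes at 0.5 or more, an empty list of this length is the common case. Mitosis genes had 21 of 24 negative (all genes 45.1%) with a median of -0.07. In the pair with E2-BSA 16 of 24 were positive (all genes 50.3%) with a median of 0.04. For G15 alone against ethanol the median was 0.51. Their member ASPM, a spindle protein, was at -0.72, but BSA minus the same control gave -0.73 for ASPM. Tubulins had 10 of 13 negative (all genes 45.1%) with a median of -0.08, with TUBB2A at -0.27. With E2-BSA 11 of 13 were negative (all genes 49.7%), with a median of -0.03. As for part of the cholesterol genes, the arrays with G15 were the 2 lowest of 8 in 4 tubulins (30.8%), against 2.59% of all genes. By probe set it was 3 of 26 (11.5%), against 2.74%. The Wnt feedback list had its median at 0.02, and SP5, a Wnt-induced repressor, was at -0.60. The luminal markers had a median of -0.01, the basal markers 0.08, and the stromal, endothelial and immune markers 0.02. Because the deposited values carry no level, which of these markers T47D expresses could not be checked.

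The probe sets past 2-fold were set beside the BSA, ICI and ethanol arrays, each minus the same control 2. NASP, a histone chaperone gene, was at -1.05 for G15, -1.86 for BSA, -1.01 for ICI and 0.02 for ethanol. MALAT1, a nuclear noncoding RNA, was at -1.16, -1.47, -0.99 and -0.30 in the same order. TMTC3 was at -1.02, -0.99, -0.99 and -0.25, SUPT16H, a histone chaperone subunit, at -1.05, -1.21, -0.79 and -0.21, and NIPBL, the cohesin loader, at -1.02, -1.43, -0.77 and -0.71. TWF1, an actin-binding protein gene, was at -1.10, -0.88, -0.86 and -0.43 and LARS1, a leucyl-tRNA synthetase, at -1.05, -0.77, -1.08 and -0.18. All these comparisons share control 2. For these probe sets of 7 genes the ethanol array lay nearer to control 2 than the G15, BSA and ICI arrays did. The same held for FBXO32 and a lower probe set without a symbol. It did not hold for the other lower ones. Ethanol was at 1.09 and BSA at -0.22 for DUSP6, and ethanol at -0.44 and ICI at -0.20 for ANKRD36B. For RUSC1-AS1 ethanol was at 0.29 and ICI at -0.02. The remaining probe set, without a symbol, was at -1.83 for ethanol and -1.04 for G15. The list of nuclear-retained and RNA-processing transcripts had 12 of 14 members below 0 under G15 (all genes 45.1%). Its median was -0.12, against -0.16 for BSA, -0.08 for ICI and -0.09 for ethanol. With the probe set of largest SD per gene the G15 median was -0.65, against 0.015 over all genes. That SD was taken over the 8 arrays, G15 and control 2 among them, so the pick favours probe sets in which these differ. The same pick was not made for BSA, ICI or ethanol, so -0.65 cannot be set beside their medians. By gene value, 9 of 14 were positive in the pair with E2-BSA (all genes 50.3%), with a median of 0.03.

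The pair with E2-BSA, which does not use control 2, gave other values for these probe sets. NASP was then at 0.11, MALAT1 at 0.32, TMTC3 at 0.01, SUPT16H at -0.09, NIPBL at 0.47, TWF1 at 0.13 and LARS1 at 0.00. FBXO32, a ubiquitin ligase of muscle wasting, had a probe set at -1.37 alone and 0.04 with E2-BSA, and its 7 probe sets ran from -1.37 to 0.21 with a median of -0.24. DUSP6 was the only one of the 14 at 0.5 or more in the same direction in both pairs. Measured against BSA in place of control 2, DUSP6 was at -1.43 and IFI27 at 2.02, and 5 probe sets passed 2-fold. ANKRD36B, the lowest gene value at -1.07, was at -0.30 against BSA and 0.11 with E2-BSA, and the antisense transcript RUSC1-AS1 was at -1.07 and -0.19 with E2-BSA. Just outside the 2-fold limit were DHX9 at -0.999, EEA1 at -0.99 and, higher, EVX1 at 0.97 and ISG15 at 0.92.

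**Figure D5:**
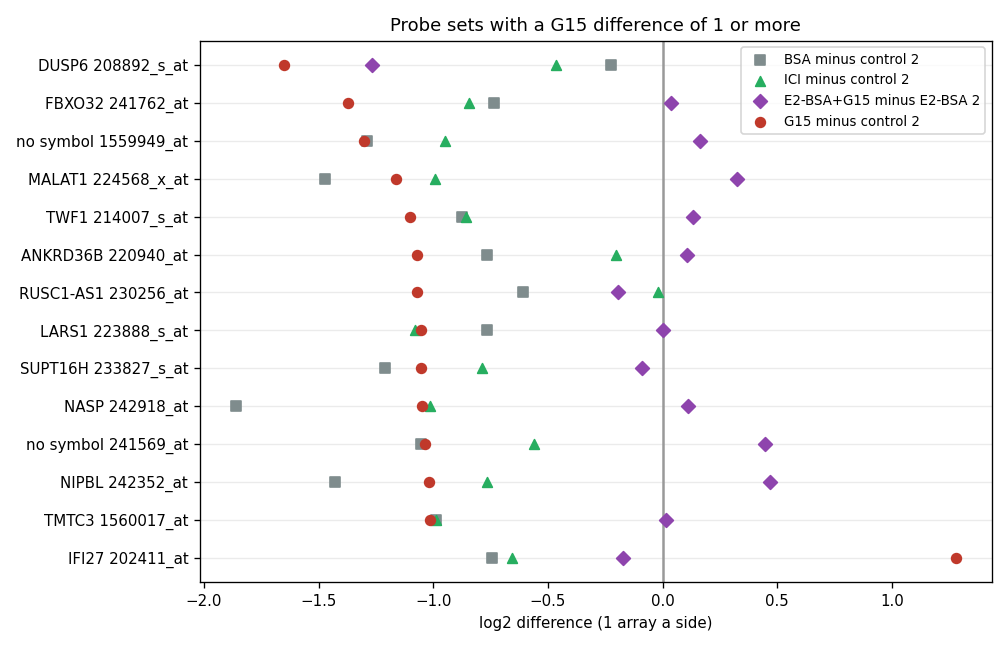
Log2 differences for the 14 probe sets with a G15 difference of 1 or more, 1 point per comparison of single arrays. Red circles are G15 minus control 2, grey squares BSA minus control 2, green triangles ICI minus control 2 and purple diamonds E2-BSA with G15 minus E2-BSA. The NASP value is -1.05 under G15 and -1.86 under BSA, and only DUSP6 is at or below -0.5 in the pair with E2-BSA.

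Further genes at the ends of the ranking are given with their value in the second pair. Among the lowest gene values, ZFR, a zinc finger RNA-binding protein gene, was at -0.67, EIF4A2, a translation initiation helicase, at -0.63, the cohesin acetyltransferase ESCO1 at -0.63 and RNPC3 at -0.60, and with E2-BSA these were at 0.13, 0.14, 0.09 and 0.06. Among the highest, HLX, a homeobox gene, was at 0.76 and 0.35, HOXD8, another, at 0.69 and -0.08, NOS2, the inducible nitric oxide synthase, at 0.65 and -0.33, SFTPD at 0.65 and 0.12, LECT2 at 0.64 and -0.05 and BTBD8 at 0.64 and -0.16. For HLX, BSA minus control 2 was 0.62 and ICI minus control 2 was 0.64. Genes with several probe sets of 1 sign were ZNF83 (-0.48), FAM111B (-0.53), GPR12 (-0.39) and ESF1 (-0.38) on the lower side and SH3PXD2B (0.44), DNAJB13 (0.45), PLEKHG5 (0.37) and EML6 (0.35) on the higher side.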

How the data were processed

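The deposited table, made by the authors, holds 54675 probe sets by 11 arrays, read here as log2 from the size and spread of the values. How they were summarised and normalised, and in which log base, was not given in the sources used here. Every array's median lay between -0.0106 and 0.00735, and each probe set was centred over arrays, so a difference between arrays can be read and an expression level cannot.

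The array's own 62 controls were dropped. Among the 54613 others the platform's annotation gave 1 symbol for 41091, several for 1801 and none for 11721, and only the first kind was used for names. Symbols were updated through RefSeq identifiers for 41037. A gene's value was the median over its probe sets. The number of arrays limits the precision, and depth does not apply. Python 3.11.15 with pandas 2.3.3 and numpy 2.4.6 took the differences. G15 over both backgrounds was fitted with limma 3.58.1 in R 4.3.3 (lmFit and eBayes, Benjamini-Hochberg over all probe sets). The fit was afterwards also run on simulated data built from its own estimates. Promoter sequences came from RefSeq (GRCh38.p14).

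Named genes were the 10 highest and 10 lowest gene values, the 6 highest and 6 lowest by their weakest probe set among genes with several of 1 sign, the 8 highest and 8 lowest by the smaller of both G15 differences, 10 estrogen and GPER1 genes, and the 2 highest and 2 lowest of each list. Uncharacterised loci, antisense transcripts, host genes, pseudogenes and small RNAs were passed over. The probe sets past 2-fold, the genes just outside that limit and further list members were named after their values were seen. The comparison, array sets and gene lists, written from textbook knowledge, were chosen with earlier results of these data known. In the fit over both backgrounds, p-values rest on differences between backgrounds and on the spread between arrays, which may be technical.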

Additional observations from a re-analysis of the deposited data

Results flagged for a closer look

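SRGAP2, a gene of neuronal migration, had differences of opposite sign in the 2 pairs that differ by G15. It was at -0.65 for G15 minus control 2 and at 0.51 for E2-BSA with G15 minus E2-BSA. Both of its probe sets had these signs, at -0.80 and -0.50 alone and 0.56 and 0.45 with E2-BSA. On control 2 the probe sets were at 0.51, the highest of the 8 arrays, and 0.37, the next to highest. The difference between the pairs was not tested.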

How the results depend on the processing

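The count of probe sets past 2-fold, 14 for G15 minus control 2, changed with the baseline array. It was 108 (10 higher, 98 lower) against ethanol, 7 against the mean of control 2, ethanol and BSA, and 3630 against control 1, of the other array set, in place of control 2 (control 1 minus control 2 alone gave 3742). Against BSA it was 5 and against ICI it was 8, both added after seeing the data. After quantile normalization it was 215 (100 higher, 115 lower), without probe sets that can match several transcripts 9, and at a limit of 0.5 it was 753. Centring each array (15) and using probe sets with 1 symbol only (12) left it within 1.5 times.

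The limma fit over both backgrounds called 0 probe sets with 4 arrays, where 1918 had an unadjusted p under 0.05. It also called 0 with 8 arrays (2505) and after quantile normalization (2520). The fit was also run without each array in turn. Leaving out either array with ICI gives the 4-array result again, because the other ICI array is then fitted by its own term. With 4 arrays or without any array the fit has 1 residual degree of freedom, so a lack of calls there is little check. The blocked fit of group means called 0, and 0 after quantile normalization (5969). Of the 26 named genes at 0.5 or more, 3 changed sign against BSA, 2 against ethanol and 4 against control 1, and 0 after quantile normalization. Those against BSA were ASPM (0.0028), ESCO1 (0.0073) and FAM111B (0.34). Those against ethanol were ASPM (0.42) and CHAC1 (-3.34), which was at -0.78 against the mean of 3. Those against control 1 were SRGAP2 (0.13), IFIT1 (-0.35), IFIT3 (-0.081) and CCDC177 (0.065). The interferon median was 0.62 and the cholesterol median -0.24 after quantile normalization. The cause of these changes was not tested. The filter on low values was not run because the values are centred. No paired analysis was possible because the G15 and control groups share fewer than 2 replicate numbers.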
